A study of Mus musculus with 35 samples.

Results

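Microglia are the resident macrophages of the brain. In healthy tissue they carry a set of receptors and regulators that sense purine nucleotides, lipids, chemokines and growth factors. Much of this homeostatic set, though not every member of it, is known to be lowered when the cells respond to injury. Status epilepticus, a prolonged seizure, is a well-known trigger of such a response in the hippocampus. Transcripts of 10 homeostatic microglia markers were followed in the hippocampus of mice after intra-amygdala kainic acid (IAKA), a glutamate receptor agonist that sets off status epilepticus, and after intra-amygdala PBS. They were P2ry12, P2ry13, Gpr34, Cx3cr1, Csf1r, Siglech, Tmem119, Fcrls, Sall1 and Aif1. The genes were taken by symbol, and all 10 were among the 32544 genes counted.

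The animals were young adult male C57BL/6JOlaHsd mice with no engineered allele named, and lorazepam was given after kainic acid to limit seizures. Hippocampal RNA was taken at 24 hours or at 2 weeks. Each library came from 1 mouse and was made either from total RNA (input) or from RNA pulled down with an antibody against N6-methyladenosine (m6A), a methyl mark on mRNA. For m6A there were 5 IAKA animals with 3 PBS controls at 24 hours, and 6 IAKA animals with 5 PBS controls at 2 weeks. For input there were 4 with 3 controls at 24 hours, and 6 with 3 controls at 2 weeks. The assay of most libraries was read from how the deposited columns were named. The level of a gene is given as CPM, the counts of the gene scaled to a common library total, so an m6A level moves with the abundance of a transcript as well as with its methylation. In whole hippocampus, fewer microglia and less RNA per microglial cell cannot be told apart.

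Total counts were 1652933 to 34564536 in the 19 m6A libraries and 3057578 to 12694434 in 13 input libraries. The other 3 input libraries, from IAKA mouse 97 and PBS mice 71 and 73 at 24 hours, held 3171, 4621 and 34486 counts and were left out, so that 1 PBS input library remained at 24 hours. Column names place the m6A libraries in library sets numbered 3, 4 and 5. Set 3 held IAKA mice only, set 4 held 2 IAKA and 2 PBS mice at 24 hours and 2 PBS mice at 2 weeks, and set 5 held 1 PBS mouse at 24 hours with 3 IAKA and 3 PBS mice at 2 weeks. The 13 input libraries kept were in sets 1.2 and 2, the latter with columns prefixed Input-. Set 1.2 held 2 IAKA mice and 1 PBS mouse at 24 hours, and 3 IAKA and 3 PBS mice at 2 weeks. Set 2 held IAKA mice only, 1 at 24 hours and 3 at 2 weeks. Mitochondrial genes took 1.86% to 17.5% of the counts of an m6A library, the highest shares being those of IAKA mouse 6 at 2 weeks (17.5%) and IAKA mouse 8 at 24 hours (16.4%).

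All 10 markers were detected in every m6A library and in all 13 input libraries, with 7 counts at the least. Levels can be set against each other per kilobase of exon, which was computed for the 9 members found by symbol in the gene models used. Cx3cr1 had the highest median in every m6A group, at 18.8 CPM per kb (range 13.7 to 19.6, n = 3) in PBS mice at 24 hours. P2ry12 stood second there, at 5.85 (5.65 to 6.35), apart from Cx3cr1 above it and from Csf1r below it, which was at 4.51 (1.87 to 4.65). Siglech (3.86), Sall1 (3.52), Tmem119 (2.82), Aif1 (2.46), Gpr34 (2.07) and P2ry13 (2.01) followed in CPM per kb, and from Csf1r down each range overlapped that of its neighbour. In IAKA mice at 24 hours P2ry12 was last of the 9, at 1.90 CPM per kb (1.83 to 4.12, n = 5). Its range overlapped those of Gpr34 (1.91, 1.15 to 3.34) and Siglech (1.91, 1.24 to 2.69) just above it. In input of IAKA mice at 24 hours P2ry12 ranked 4 of the 9, at 1.99 (0.91 to 2.40, n = 3). In m6A libraries of IAKA mice at 2 weeks it was second, at 9.04 (6.69 to 13.3, n = 6).

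The promoters of P2ry12, Siglech and Fcrls are shown because these genes and Gpr34 had the largest differences between IAKA and PBS mice in m6A libraries, described below. Each runs from 250 bases before to 50 after the RefSeq start in GRCm38.p6. Capitals mark AGGAAG or GAGGAA on either strand, letters found in the core site of PU.1, the factor that establishes the myeloid lineage. The P2ry12 sequence is chr3:59262936-59263235 (minus strand), the Siglech sequence chr7:55767934-55768233 (plus strand) and the Fcrls sequence chr3:87263475-87263774 (minus strand).
P2ry12: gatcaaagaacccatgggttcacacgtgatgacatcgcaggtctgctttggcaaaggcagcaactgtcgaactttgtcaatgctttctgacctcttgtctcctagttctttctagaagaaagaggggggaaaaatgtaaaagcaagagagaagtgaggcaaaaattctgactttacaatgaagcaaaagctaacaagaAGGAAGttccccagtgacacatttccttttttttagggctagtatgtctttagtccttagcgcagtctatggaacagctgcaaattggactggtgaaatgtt
Siglech: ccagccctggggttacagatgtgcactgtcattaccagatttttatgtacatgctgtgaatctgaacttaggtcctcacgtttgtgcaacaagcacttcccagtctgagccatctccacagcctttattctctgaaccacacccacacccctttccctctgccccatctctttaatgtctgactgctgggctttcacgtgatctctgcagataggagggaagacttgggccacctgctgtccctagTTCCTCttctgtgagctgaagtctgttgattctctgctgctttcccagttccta
Fcrls: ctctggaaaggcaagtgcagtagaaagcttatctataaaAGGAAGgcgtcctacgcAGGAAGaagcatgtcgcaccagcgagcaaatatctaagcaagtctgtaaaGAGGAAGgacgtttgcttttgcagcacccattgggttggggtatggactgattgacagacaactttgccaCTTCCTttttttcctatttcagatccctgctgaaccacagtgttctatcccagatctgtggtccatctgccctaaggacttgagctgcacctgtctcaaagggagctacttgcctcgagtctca
P2ry12 and Siglech held 1 marked stretch each and Fcrls held 4. The 7 members with a promoter entry had 9 windows, as Sall1 had several. Of these windows, 6 held at least 1 of these motifs, which can overlap each other. So did 46.0% of all 32851 promoter windows of this length (35.4% held AGGAAG and 28.3% GAGGAA).

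At 24 hours, P2ry12 and Siglech were the members whose m6A levels lay lower in every IAKA mouse than in every PBS mouse, and the other 8 overlapped. P2ry12 is the receptor through which microglial processes sense ADP. Its level in PBS mice 71, 73 and 1 was 18.7, 18.1 and 20.4 CPM (19.1 ± 1.17, SD, n = 3). In IAKA mice 67, 98, 97, 79 and 8 it was 7.58, 6.05, 5.87, 13.2 and 6.08 CPM (7.76 ± 3.13, SD, n = 5), from 15, 10, 79, 423 and 82 counts. Mouse 79 stood above the other 4 IAKA mice and still below all PBS mice. The log2 fold change was −1.30 (SE 0.31), a level 2.45-fold lower, and the quasi-likelihood test of edgeR over 16470 genes gave an adjusted P of 0.32 (unadjusted 0.0016). DESeq2 gave −1.30 with an adjusted P of 0.042, and limma's voom with sample weights gave −1.27 with an adjusted P of 0.010. Within library set 4 alone, with 2 mice a group, the log2 fold change was −1.04.

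Siglech, a sialic acid-binding lectin of the microglial surface, was at 20.6, 18.9 and 16.8 CPM in PBS mice 71, 73 and 1 (18.8 ± 1.93, SD, n = 3). It was at 6.06, 9.07, 9.36, 13.2 and 12.98 CPM in IAKA mice 67, 98, 97, 79 and 8 (10.1 ± 2.98, SD, n = 5). The highest IAKA values, in mice 79 and 8, remained under the lowest PBS value. The log2 fold change was −0.82 (SE 0.34, edgeR adjusted P = 0.88, unadjusted P = 0.036), and it was −0.92 within library set 4. By voom it was −1.01 with an adjusted P of 0.0076, whereas DESeq2 gave −0.84 with an adjusted P of 0.59. The threshold used throughout, an adjusted P under 0.05 in edgeR, was passed by no member and by 1 gene of 16470 (0.00607%), Tm4sf1. At the same adjusted P, DESeq2 called 156 of all genes (14 lower) and voom 1120 (359 lower). At an unadjusted P under 0.05, 2 of 10 members were lower, beside 1.29% of all genes, and those 2 were also the members without overlap, beside 1.09% of all genes.

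The remaining purine and lipid receptors overlapped between groups at 24 hours. P2ry13, another ADP receptor, was at 6.63, 6.44 and 8.56 CPM in PBS mice and at 7.58, 4.23, 7.35, 8.03 and 3.71 CPM in IAKA mice, in the same order (log2 fold change −0.25, SE 0.31). Gpr34, a receptor for lysophosphatidylserine, was at 5.94 to 10.8 CPM in PBS and 3.54 to 10.3 CPM in IAKA mice (−0.24, SE 0.39). Within library set 4 these values had the opposite sign, 0.12 and 0.36. P2ry12 and P2ry13 lie inside the span of Med12l and Gpr34 inside that of Cask, each on the strand opposite to the larger gene, and the sources used here do not say whether strand was used in counting. Med12l gave a log2 fold change of −0.29 (SE 0.28) and Cask one of 0.09 (SE 0.35) in the same fit.

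Cx3cr1, the receptor by which microglia sense neuronal fractalkine, was at 63.7 to 91.4 CPM in PBS mice and 61.1 to 137 CPM in IAKA mice at 24 hours (log2 fold change 0.31, SE 0.32). Csf1r, the receptor for the survival factors CSF1 and IL-34, was at 13.7 to 34.2 and 5.49 to 43.4 CPM (0.06, SE 0.50), with the lowest value in mouse 8. Fcrls, an Fc receptor-like molecule of mouse microglia, was at 11.3 to 14.6 and 6.38 to 28.4 CPM (0.41, SE 0.36). Tmem119, a membrane protein used to tell microglia from other macrophages, gave a log2 fold change of 0.00 (SE 0.61). Sall1, a transcription factor needed for microglial identity, gave −0.13 (SE 0.42). Aif1, which encodes the calcium-binding protein IBA1, was at 7.15 to 11.4 and 8.09 to 19.98 CPM (0.44, SE 0.30). Over the 10 members, 4 log2 fold changes were above 0 (58% of all genes were) and the median was −0.07, beside 0.08 over all genes.

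**Figure D1:**
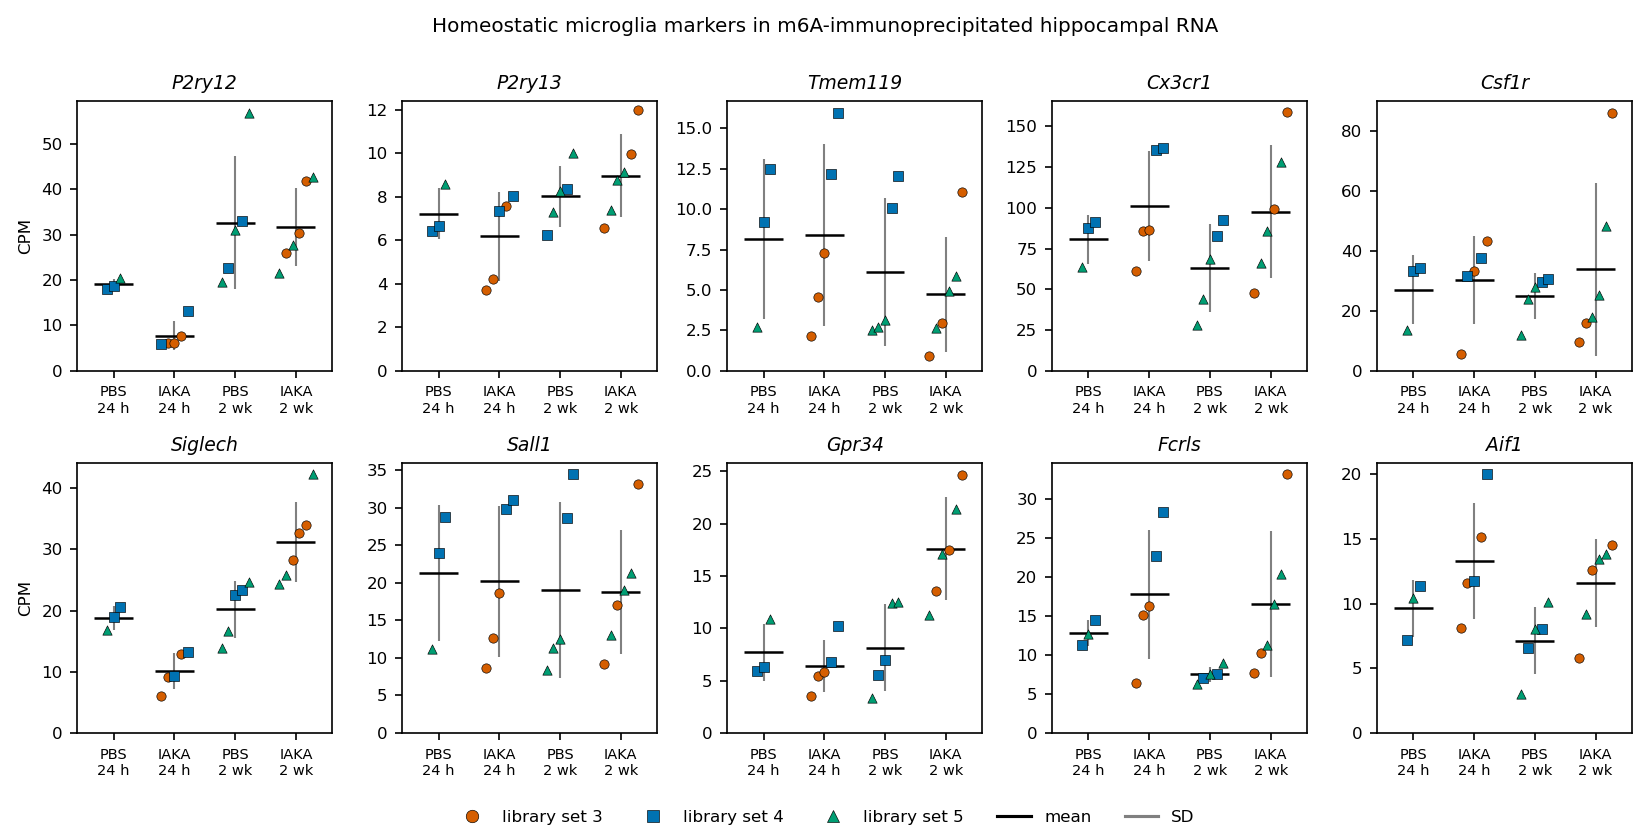
CPM of each member in the 19 m6A libraries by group, with each point 1 mouse, its colour and shape the library set, the black line the group mean and the grey line the SD. P2ry12 and Siglech in IAKA mice at 24 hours (at most 13.2 CPM) sit below every PBS mouse of that time, and for Tmem119 and Sall1 the squares of set 4 sit above the triangles of set 5 among PBS mice.

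In input at 24 hours, P2ry12 and Siglech again lay lower in the IAKA mice, but against a single PBS library, that of mouse 1, whose spread is assumed to be that of the other input groups. P2ry12 was at 11.4 CPM in that mouse and at 6.37, 7.68 and 2.92 CPM in IAKA mice 67, 98 and 8 (5.66 ± 2.45, SD, n = 3). Siglech was at 14.7 CPM against 7.46, 9.47 and 6.56 CPM. The log2 fold changes were −0.78 (SE 0.42, adjusted P = 0.61) and −0.62 (SE 0.30, adjusted P = 0.55) in edgeR. Without mouse 8 they were −0.49 and −0.58, and leaving out each IAKA mouse in turn P2ry12 ran from −1.02 to −0.49 and Fcrls from 0.44 to 1.53. Gpr34 (5.28 CPM in the PBS mouse, 3.33 to 4.73 CPM in IAKA mice) and Aif1 (5.91 and 2.42 to 4.36 CPM) also lay lower in all 3 IAKA libraries, with log2 fold changes of −0.11 (SE 0.39) and −0.41 (SE 0.46). Lying below this 1 library was common, as 33.1% of all genes did so, beside 4 of 10 members.

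The other 6 members had log2 fold changes above 0 in input at 24 hours, from 0.59 for Cx3cr1 to 1.41 for Csf1r, with SEs of 0.42 to 0.87, where 66% of all genes were above 0. Csf1r was at 11.3 CPM in PBS mouse 1 and at 35.5, 32.8 and 8.07 CPM in IAKA mice 67, 98 and 8. Fcrls was at 7.88 CPM in the PBS mouse and at 22.6, 16.4 and 2.72 CPM in the IAKA mice. In both genes mouse 8, with a mitochondrial share of 17.4%, lay below the PBS mouse while mice 67 and 98, with shares of 1.72% and 1.62%, lay above it. The share of the PBS mouse was 6.45%. Mouse 8 was also in input set 2, while the PBS mouse and mice 67 and 98 were in set 1.2. The part of the share or of the set in these values was not tested. No member reached an unadjusted P under 0.05 (9.23% of all genes did), and 0% of 17644 genes passed the adjusted threshold in edgeR, where 1629 had an unadjusted P under 0.05, while DESeq2 called 201 genes and voom 1076. The median of the members was 0.66, beside 0.27 over all genes. Scaling by library size in place of TMM shifted the median of all genes by −0.31, to −0.04. Marker medians of other cells ran from −0.50 (oligodendrocytes) to 2.05 (neutrophils). Among them were −0.38 for inhibitory neurons, −0.05 for excitatory neurons, 0.37 for astrocytes and 1.76 for endothelial cells.

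At 2 weeks P2ry12 had similar m6A levels in both groups, and Fcrls, Gpr34, Aif1 and Siglech were the members with the higher means after IAKA at an unadjusted P under 0.05. P2ry12 was at 33.1, 22.7, 30.9, 19.6 and 56.7 CPM in PBS mice 50, 78, 2, 3 and 4, and its lowest, median and highest values in the 6 IAKA mice were 21.4, 29.0 and 42.6 CPM. The IAKA values lay within the PBS range. The log2 fold change was 0.06 (SE 0.30), and it was −0.14 within library set 5, the set with both groups at this time.

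Fcrls was at 7.10, 7.60, 9.00, 6.29 and 7.60 CPM in PBS mice 50, 78, 2, 3 and 4 (7.52 ± 0.99, SD, n = 5). In IAKA mice its lowest, median and highest values were 7.66, 13.9 and 33.2 CPM (16.6 ± 9.38, SD, n = 6). Of these mice, 5 lay above every PBS mouse, and mouse 6, the library with the highest mitochondrial share, lay within the PBS range. The log2 fold change was 1.199 (SE 0.33, edgeR adjusted P = 0.87, unadjusted P = 0.0026), and it was 1.16 within library set 5.

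Gpr34 was at 6.99, 5.56, 12.5, 12.4 and 3.34 CPM in PBS mice 50, 78, 2, 3 and 4 (8.16 ± 4.13, SD, n = 5). Its lowest, median and highest values in IAKA mice were 11.3, 17.3 and 24.7 CPM (17.6 ± 4.92, SD, n = 6). The groups overlapped through IAKA mouse 7, which lay below PBS mice 2 and 3. The log2 fold change was 1.205 (SE 0.35, edgeR adjusted P = 0.87, unadjusted P = 0.0037) and 0.88 within library set 5, while Cask, on the opposite strand, gave 0.14 (SE 0.29).

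Siglech, which lay below PBS at 24 hours, lay higher in IAKA mice at 2 weeks. It was at 22.5, 23.3, 24.6, 16.6 and 13.8 CPM in PBS mice 50, 78, 2, 3 and 4, and at 24.4, 30.4 and 42.2 CPM (lowest, median, highest) in IAKA mice. The groups met only where IAKA mouse 7 (24.4 CPM) lay under PBS mouse 2 (24.6 CPM). The log2 fold change was 0.72 (SE 0.22, edgeR adjusted P = 0.87, unadjusted P = 0.0066) and 0.83 within library set 5. Aif1 was at 8.04, 6.53, 10.1, 8.00 and 3.04 CPM in the same PBS mice and at 5.76, 13.01 and 14.5 CPM in IAKA mice, the lowest again being mouse 6. Its log2 fold change was 0.75 (SE 0.29, edgeR adjusted P = 0.87, unadjusted P = 0.022).

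The other 5 members overlapped more widely at 2 weeks. Cx3cr1 gave a log2 fold change of 0.69 (SE 0.33), with 28.1 to 92.7 CPM in PBS and 47.7 to 159 CPM in IAKA mice. Csf1r gave 0.49 (SE 0.47), with 12.03 to 30.5 and 9.79 to 85.9 CPM, and P2ry13 gave 0.22 (SE 0.20), with 6.24 to 10.0 and 6.58 to 11.97 CPM. Among PBS mice, Cx3cr1 was at 83.0 and 92.7 CPM in set 4 and at 28.1 to 68.6 CPM in set 5. Csf1r was at 29.7 and 30.5 CPM in PBS mice of set 4 and at 12.03 to 28.1 CPM in those of set 5. In IAKA mice of set 5 Cx3cr1 was at 66.2 to 128 CPM and Csf1r at 18.0 to 48.3 CPM. Tmem119 and Sall1 also differed between library sets within a group. Tmem119 was at 12.1 and 10.0 CPM in the PBS mice of set 4 and at 3.17, 2.50 and 2.74 CPM in those of set 5. In IAKA mice it was at 4.93, 2.68 and 5.86 CPM in set 5 (mice 21, 7 and 9) and at 11.1, 2.96 and 0.936 CPM in set 3 (mice 42, 5 and 6). Its log2 fold change was −0.32 (SE 0.56) over all mice and 0.76 within set 5. Sall1 was likewise at 34.5 and 28.6 CPM in the PBS mice of set 4 and at 8.36 to 12.5 CPM in those of set 5, with a log2 fold change of 0.04 (SE 0.38) over all mice and 0.80 within set 5.

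Of the 10 members, 9 log2 fold changes in m6A libraries at 2 weeks were above 0 (49.8% of all genes were), with a median of 0.59 beside 0.00 over all genes. A higher level at an unadjusted P under 0.05 was found for 4 members and for 2.85% of all genes. No member and no gene of 16157 (0%) passed the adjusted threshold in edgeR, where 809 genes had an unadjusted P under 0.05, and neither the 15 genes called by DESeq2 nor the 2 called by voom included a member. No member had all IAKA mice above all PBS mice, which 0.26% of all genes had.

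Input libraries at 2 weeks came from PBS mice 2, 3 and 4 and from 6 IAKA mice, and all 10 members had a log2 fold change above 0 (52.4% of all genes did). The median was 0.40, beside 0.02 over all genes. In the same fit, markers of other cells had medians of 0.55 (excitatory neurons), 0.52 (astrocytes) and 0.49 (endothelial cells). Lower medians were those of oligodendrocytes (0.25), monocytes (0.14), lymphocytes (0.11), border macrophages (0.08), inhibitory neurons (0.04) and neutrophils (0.02, 1 gene tested). Fcrls was at 9.77, 7.70 and 7.87 CPM in PBS mice and at 8.83, 15.6 and 34.0 CPM (lowest, median, highest) in IAKA mice (1.08, SE 0.38, edgeR adjusted P = 0.28). The lowest IAKA value, that of mouse 5, lay within the PBS range. Cx3cr1 was at 48.6, 28.5 and 53.7 CPM against 52.2, 62.4 and 115 CPM (0.78, SE 0.28, edgeR adjusted P = 0.28). Sall1 was at 11.5, 8.55 and 13.3 CPM against 11.4, 18.2 and 24.4 CPM (0.72, SE 0.24, edgeR adjusted P = 0.28), with the lowest IAKA value just under PBS mouse 2.

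Those 3 members had an unadjusted P under 0.05 in input at 2 weeks, beside 8.41% of all genes with a higher level. Csf1r (0.94, SE 0.47), Tmem119 (0.52, SE 0.26) and Siglech (0.29, SE 0.18) did not. P2ry12 was at 21.5, 22.0 and 16.4 CPM in PBS mice and at 12.5, 20.6 and 25.0 CPM in IAKA mice, with a log2 fold change of 0.01 (SE 0.23). Aif1 (0.08, SE 0.30), P2ry13 (0.10, SE 0.27) and Gpr34 (0.15, SE 0.24) were also near 0, although Gpr34 had been at 1.205 in m6A libraries. No member had all IAKA mice above all PBS mice (2.64% of all genes did), and 0% of 13752 genes passed the adjusted threshold in edgeR, where 1938 had an unadjusted P under 0.05. The 113 genes called by DESeq2 and the 342 called by voom held no member.

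**Figure D2:**
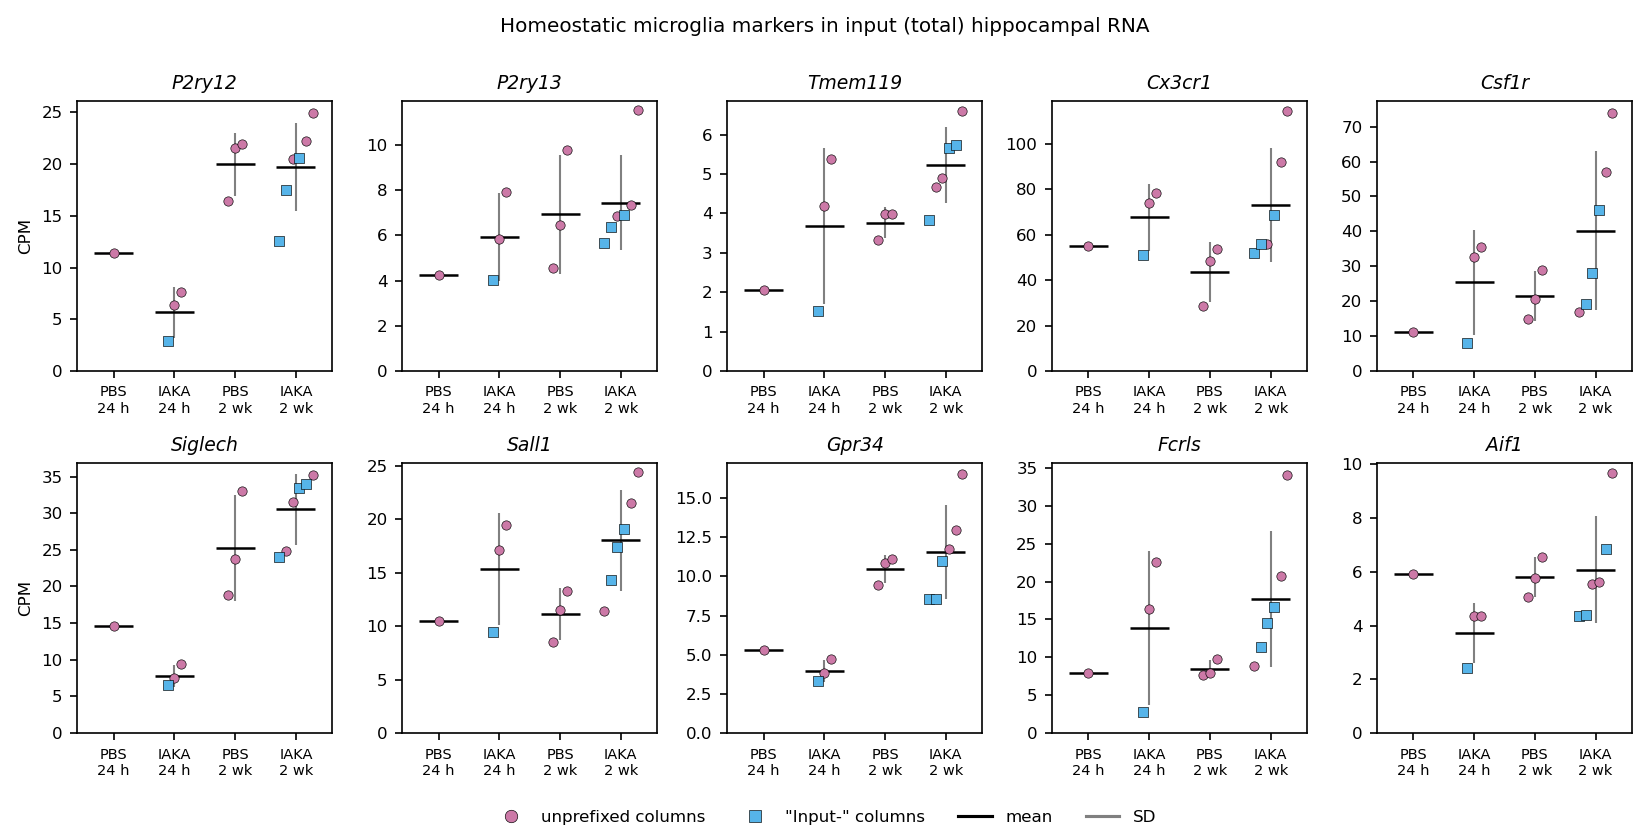
CPM of each member in the 13 input libraries with at least 100000 counts, by group, 1 point a mouse, with colour and shape for the naming of the deposited columns, the black line the mean and the grey line the SD (none for the single PBS mouse at 24 hours). P2ry12 and Siglech in IAKA mice at 24 hours (at most 7.68 and 9.47 CPM) lie below that PBS mouse, and Fcrls at 2 weeks spans 8.83 to 34.0 CPM in IAKA mice.

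Whether the difference between IAKA and PBS mice itself differed between the times was tested as an interaction over the 19 m6A libraries, as the log2 fold change at 2 weeks minus that at 24 hours. Siglech gave 1.54 (SE 0.39, unadjusted P = 0.00079), Gpr34 1.43 (SE 0.53, unadjusted P = 0.014) and P2ry12 1.35 (SE 0.46, unadjusted P = 0.0082), all with an adjusted P of 1.00 in edgeR. These 3 of 10 members compare with 0.636% of all genes above 0 at an unadjusted P under 0.05. Of the others, 6 lay above 0, from 0.16 for Sall1 to 0.78 for Fcrls, and Tmem119 was at −0.33 (SE 0.90). In all, 9 members were above 0, where 39.3% of all genes were, and the median was 0.45 beside −0.11. In edgeR 1 gene of 17440 (0.00573%) and no member passed the adjusted threshold, whereas by voom Siglech passed, at 1.59 with an adjusted P of 0.023. Voom called 62 of all genes in this interaction, 10 of them above 0. With sets 4 and 5 alone and the set as a block, Siglech was at 1.74, P2ry12 at 0.89 and Gpr34 at 0.52.

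**Figure D3:**
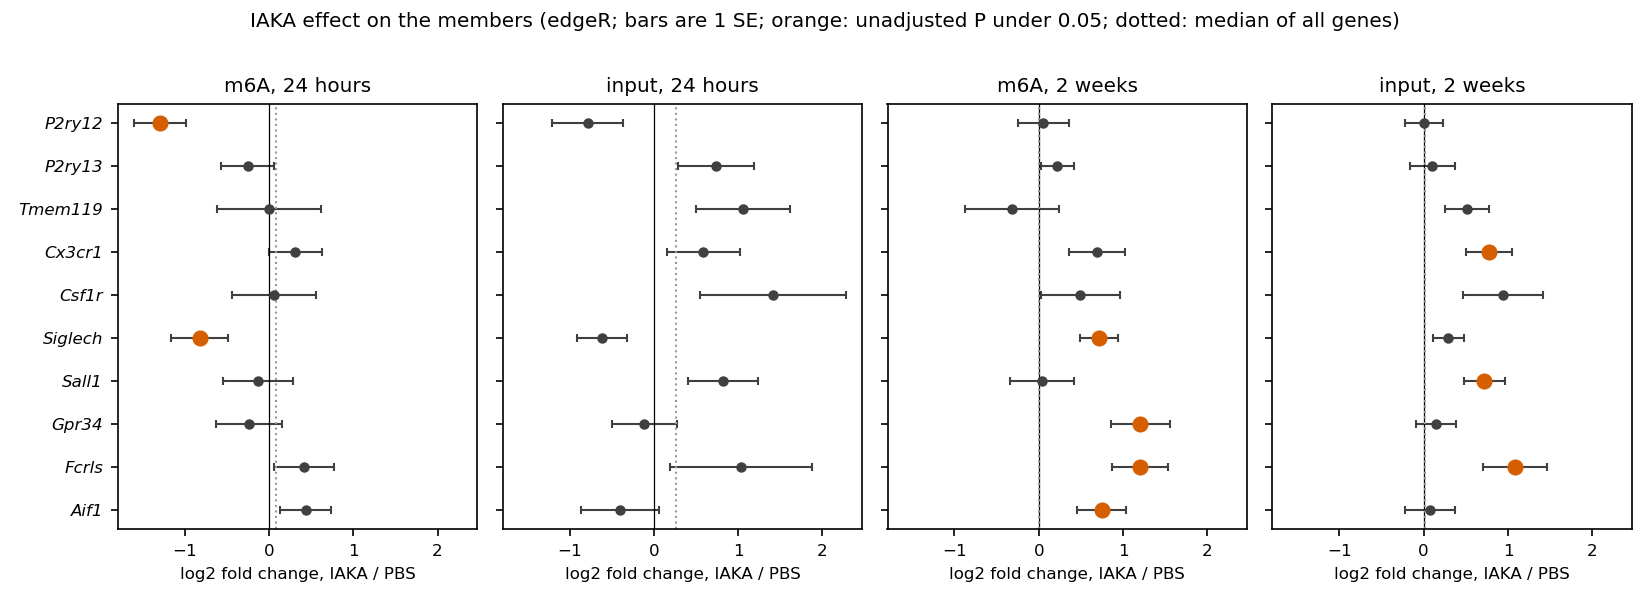
Log2 fold change of IAKA over PBS for each member in m6A and input libraries at 24 hours and 2 weeks (edgeR, bars 1 SE), with orange points for an unadjusted P under 0.05 and a dotted line at the median of all genes. P2ry12 (−1.30) and Siglech (−0.82) are the orange points left of 0 at 24 hours, and all orange points at 2 weeks lie right of 0.

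The share of each transcript in the pulldown was set against input of the same mice, in a main fit without the mouse as a block. The m6A libraries are also described as polyA RNA, so pulldown and polyA selection cannot be told apart in this ratio. In PBS mice 1, 2, 3 and 4, P2ry12 had a log2 ratio of m6A over input of 0.61 (SE 0.37, edgeR adjusted P = 0.42) and Siglech one of −0.56 (SE 0.27, edgeR adjusted P = 0.32), the ends of the members' range. Without mouse 4, in which P2ry12 was at 56.7 CPM in m6A and 16.4 CPM in input, these values were 0.19 and −0.18 and neither was at an end of the range, which ran from −0.38 for Tmem119 to 0.45 for Aif1. The median was −0.11, with 3 of 10 members above 0 (49.5% of all genes were). No member was called, beside 2.06% of 15109 genes, and none had an unadjusted P under 0.05, which 18% of all genes had. Scaling by library size shifted the median of all genes by 0.22 here, and gave 0.85 for P2ry12 and −0.32 for Siglech. With the mouse as a block, P2ry12 gave 0.53 (SE 0.31) and Siglech −0.51 (SE 0.26).

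At 2 weeks the difference of this ratio between IAKA and PBS mice was within its error for most members. Gpr34 gave 0.82 (SE 0.50; 0.53 without mouse 4), Aif1 0.67 (SE 0.49), Siglech 0.55 (SE 0.33) and Csf1r −0.23 (SE 0.81; 0.06 without mouse 4). Fcrls, which lay higher after IAKA in both kinds of library, gave 0.09 (SE 0.58). The median was 0.22, and 8 of 10 members were above 0 (47.6% of all genes were). No member had an unadjusted P under 0.05 (2.35% of all genes did), and 0% of 15722 genes passed the adjusted threshold in edgeR, while 370 had an unadjusted P under 0.05 and DESeq2 called 2. At 24 hours there is 1 PBS pair and no test. P2ry12 was at 20.4 CPM in m6A and 11.4 CPM in input in PBS mouse 1, at 7.58 and 6.37 CPM in IAKA mouse 67, at 6.05 and 7.68 CPM in mouse 98 and at 6.08 and 2.92 CPM in mouse 8.

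Across the 19 m6A libraries the members did not vary as 1 group. Likeness is described by Pearson's r of log2(CPM + 1) over libraries that share depth, set and treatment. P2ry12 went with Siglech (0.77) and P2ry13 (0.56), and Siglech with Gpr34 (0.75). Tmem119 went with Sall1 (0.91), Csf1r (0.73) and Cx3cr1 (0.70), and Aif1 with Cx3cr1 (0.74) and Fcrls (0.72). P2ry12 ran weakly against Aif1 (−0.40) and Cx3cr1 (−0.31). Tmem119, Csf1r and Sall1 were low where the mitochondrial share of the library was high (−0.84, −0.84 and −0.78), and P2ry12 and Siglech had values of 0.25 and 0.26 with it. The part of that share in the results was not tested. Over the 13 input libraries P2ry12 went with Gpr34 (0.94), Siglech (0.85) and Aif1 (0.83), and Fcrls with Csf1r (0.93) and Sall1 (0.87). All 10 members ran against the mitochondrial share in input, from −0.42 for Siglech and −0.61 for P2ry12 to −0.86 for Fcrls.

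**Figure D4:**
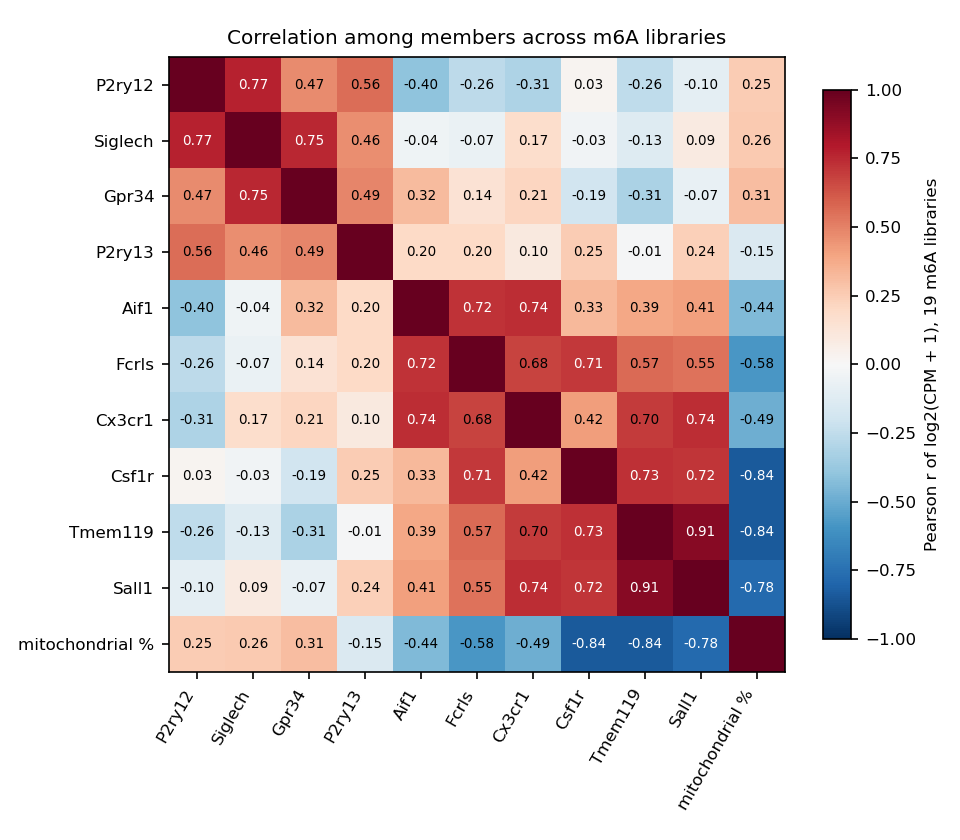
Pearson's r of log2(CPM + 1) between members, and with the mitochondrial percent of counts, over the 19 m6A libraries (red positive, blue negative). P2ry12, Siglech, Gpr34 and P2ry13 form a red block at the upper left (r of 0.46 to 0.77), and Csf1r, Tmem119 and Sall1 are blue against the mitochondrial percent (−0.84, −0.84 and −0.78).

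The genes most like the members, by r with the mean z score of the members over the 19 m6A libraries among 11949 genes with a mean of at least 5 CPM, were Vsir (0.84), Pawr (0.82), Gna13 (0.81), Slc1a3 (0.81) and Clu (0.81). Those least like them were Oprm1 (−0.77), Tmem60 (−0.74) and Mctp2 (−0.73). The members themselves ran from 0.25 for P2ry12 to 0.76 for Sall1 on this measure.

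Lists of related genes place the members beside other microglial and myeloid transcripts. None of the genes in these lists passed the adjusted threshold in edgeR between IAKA and PBS mice, and the examples were chosen after their values were seen. In m6A libraries at 24 hours, 17 of 19 other homeostatic microglia genes were tested, with 9 above 0 and a median of 0.05. At 2 weeks 15 of 17 were above 0, with a median of 0.38. Transcription factors and TGF-beta genes that set microglial identity, among them Spi1, which encodes PU.1, had medians of 0.63 at 24 hours and 0.49 at 2 weeks, with 9 of 11 above 0 each time. Spi1 gave 0.76 (SE 0.54) and 0.64 (SE 0.64).

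Genes known from disease-associated microglia, the state in which many homeostatic markers are low, mostly lay above 0. In m6A libraries 20 of 21 tested had a log2 fold change above 0 at 24 hours, with a median of 1.18, and 11 had an unadjusted P under 0.05, all higher. Of all 16470 genes, 874 had one in either direction, 213 of them lower. Spp1, which encodes osteopontin, gave 3.04 (SE 0.58) and Cd63, a lysosomal tetraspanin, gave 1.89 (SE 0.35). Apoe, the 1 gene of the list below 0, gave −0.93 (SE 0.51). DESeq2 called 4 of the 21 (Cd9, Spp1, Cd63 and Ccl4) and 156 of all genes. With voom, 8 of the 21 were called higher and 1 lower, beside 1120 of all genes called. At 2 weeks 16 of 18 were above 0, with a median of 1.01, and Clec7a, the receptor dectin-1, gave 3.20 (SE 0.46, edgeR adjusted P = 0.078). DESeq2 called 4 of these 18 higher (Cst7, Clec7a, Ccl6 and Cd52), beside 15 of all genes, and voom called none of the 18. Genes shared by myeloid cells had medians of 0.53 at 24 hours (13 of 15 above 0) and 1.07 at 2 weeks (15 of 15). Among them the protease gene Ctss gave −0.15 (SE 0.36) and 1.45 (SE 0.28). At 2 weeks DESeq2 called 3 of these 15 myeloid genes higher (Ctss, Ptprc and Fcgr3), and voom called none. In input at 2 weeks the median of the myeloid genes was 1.29, beside 0.40 for the members.

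Ligands of the members' receptors and enzymes of purine supply made up a list of 5 genes, of which 4 were above 0 in m6A libraries at 24 hours and 2 at 2 weeks. Csf1, a ligand of Csf1r, gave 1.30 (SE 0.53) at 24 hours and −0.20 (SE 0.50) at 2 weeks. Il34, the other ligand of Csf1r, gave −0.20 (SE 0.33) and −0.35 (SE 0.21), and Cx3cl1, the ligand of Cx3cr1, gave 0.25 (SE 0.37) and −0.29 (SE 0.26). Entpd1, whose product degrades the ATP and ADP around microglia, gave 0.07 (SE 0.34) and 0.38 (SE 0.21), and Nt5e, which makes adenosine from AMP, gave 0.66 (SE 0.64) and 0.47 (SE 0.30).

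**Figure D5:**
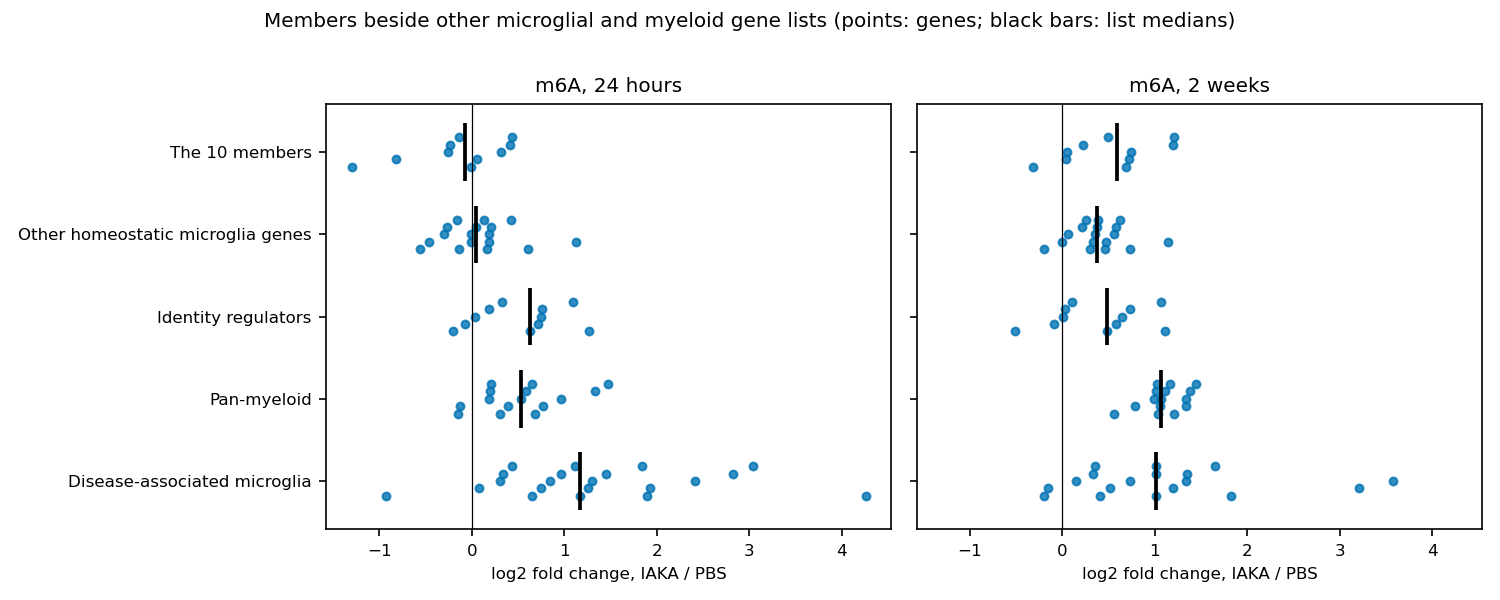
Log2 fold change of IAKA over PBS in m6A libraries at 24 hours and 2 weeks, with 1 point a gene (vertical offsets only separate the points) and a black bar at the median of each list. The members' median was −0.07 at 24 hours and 0.59 at 2 weeks, and that of the disease-associated microglia genes 1.18 and 1.01.

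Other cells that carry some of these transcripts were followed by their own markers, as summed CPM in m6A libraries. Border macrophage markers (7 genes, among them Mrc1, Pf4 and Lyve1) were at 20.3 to 26.4 CPM in PBS and 20.6 to 74.9 CPM in IAKA mice at 24 hours, and at 14.3 to 31.2 and 18.4 to 41.4 CPM at 2 weeks. Monocyte markers (7 genes) were at 122 to 163 and 123 to 307 CPM at 24 hours and at 111 to 128 and 79.3 to 210 CPM at 2 weeks, with Plac8 at 0 in all PBS mice at 2 weeks. Neutrophil markers (7 genes) were at 23.2 to 43.8 and 20.7 to 225 CPM at 24 hours, the highest in mouse 8, and at 17.9 to 28.1 and 12.1 to 36.1 CPM at 2 weeks, with Ly6g at 0 in all PBS mice at 2 weeks. Among markers of the other brain cells, the median log2 fold change in m6A libraries was −0.43 for excitatory neurons and −0.44 for oligodendrocytes at 24 hours, and −0.41 (0 of 6 above 0) and −0.20 at 2 weeks. The medians at 24 hours and 2 weeks were −0.20 and 0.33 for astrocytes and 0.12 and −0.02 for inhibitory neurons. For endothelial cells they were 0.34 and −0.04. In input at 2 weeks the median of excitatory neurons was 0.55, with 5 of 6 above 0. The part of these cells in the members' levels was not tested. The 10 members summed to 171 to 235 CPM in PBS and 146 to 312 CPM in IAKA mice at 24 hours, and to 141 to 256 and 187 to 418 CPM at 2 weeks. Without mouse 8, the log2 fold changes at 24 hours in m6A libraries were −1.27 for P2ry12 and −1.04 for Siglech.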

How the data were processed

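Per the labels, each library was made from the hippocampus of 1 mouse with a stranded total RNA kit, as input or after m6A immunoprecipitation. The values deposited are raw read counts per gene symbol and sequencing lane, not normalised by the authors. The submitters' processing notes name the build mm10, while the sources used here name no aligner, counter or annotation and do not say whether strand was used. The 4 lanes of each library were summed (140 columns, 35 libraries), and 8 further columns of per-sample values that no sample's labels match were not used. The assay is named in the column names of some libraries and was inferred from their naming in the others. Groups were taken from the labels, and inputs under 100000 counts were left out.

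Counts were tested with edgeR 4.0.16 under R 4.3.3 (scaled by TMM, filtered with filterByExpr, robust quasi-likelihood fit, Benjamini-Hochberg over all genes tested, threshold 0.05), with no covariate. The SE is the absolute log2 fold change over the square root of F. Members and gene lists were chosen with earlier results of these data known. All members are named, and of the lists up to 5 genes past the threshold and examples said to be chosen by value. Alternatives were library size scaling, other filters, DESeq2 1.42.0, limma 3.58.1 (voom with quality weights), leaving out mitochondrial and rRNA genes, each mouse left out in turn, the library set as a block or alone, and the mouse as a block where m6A and input came from the same animal. Same-mouse deviations of the assays correlated at a median r of 0.45 (−0.13 to 0.88, 12 mice). For 7 of the 12 mice the input correlated best with its own m6A library among those of its group. In PBS mice 2, 3 and 4 the same-mouse r was −0.13, 0.34 and 0.01. The highest r with another mouse's m6A library of the group was 0.29, 0.09 and 0.04. PBS mouse 1, the lone deep input of its group, had no such value. The pairing was taken from the labels. The scripts were tested on simulated data. Promoters and positions are from RefSeq (GRCm38.p6), and all 10 members matched by symbol.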

Additional observations from a re-analysis of the deposited data

Results flagged for a closer look

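The 10 members were each examined in the 4 groups of 5 or 6 mice, 40 sets of values that share the same mice, and 2 sets held a sample far from the others, where chance gives about 1 in 20. P2ry12 in the m6A library of IAKA mouse 79 at 24 hours was at 13.2 CPM, where the other 4 mice of the group were at 5.87 to 7.58 CPM. P2ry13 in the input library of IAKA mouse 42 at 2 weeks was at 11.6 CPM, where the other 5 mice were at 5.67 to 7.33 CPM.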

How the results depend on the processing

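At 24 hours in m6A libraries no member was called in edgeR, 1 was called with DESeq2 (P2ry12) and 2 with voom (P2ry12, Siglech), and in the interaction voom called 1 (Siglech). Of all genes, edgeR called 1 at 24 hours, DESeq2 156 (14 lower) and voom 1120 (359 lower). In the interaction voom called 62 of all genes. Leaving out each mouse, P2ry12 stayed between −1.59 and −1.21 and Siglech between −1.04 and −0.71 in m6A at 24 hours, and Fcrls between 0.89 and 1.33 and Gpr34 between 1.01 and 1.41 in m6A at 2 weeks. In input at 24 hours, leaving out each IAKA mouse, P2ry12 ran from −1.02 to −0.49 (the last without mouse 8).

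All genes called in m6A at 24 hours (1) were 3 with library size scaling, 22 with no filter, 156 with DESeq2, 1120 with voom, 0 with the set as a block, 31 with all 19 libraries, 356 in set 4 alone and 0 to 45 with a mouse left out (45 without IAKA mouse 8, 0 without PBS mouse 71 or 73). At 2 weeks (0) they were 2, 15, 2 and 1 with no filter, DESeq2, voom and all 19 libraries, and 0 to 1 without a mouse. In input at 24 hours (0) they were 1 with library size scaling, 3 with no filter, 201 with DESeq2, 1076 with voom, 2 with the set as a block, 75 with all 7 libraries and 1 to 180 without a mouse (180 without IAKA mouse 8). In input at 2 weeks (0) they were 4, 113 and 342 with no filter, DESeq2 and voom, and 0 to 1 without a mouse. The interaction (1) gave 5 with DESeq2, 62 with voom, 2 with the set as a block, 4 with sets 4 and 5 alone and 1 without each mouse. For the treatment difference of m6A over input (0), DESeq2 gave 2, the replicate block of paired libraries 1, and leaving out a mouse 0 to 1. For m6A over input in PBS mice (312), library size scaling gave 875, DESeq2 1036, voom 2519, the replicate block 166 and leaving out a mouse 35 to 360. The block changed no call of a member.

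Signs turned in m6A at 24 hours for P2ry13 (0.090 voom, 0.11 set block, 0.12 set 4), Tmem119 (0.090 library size, 0.31, 0.24, 0.0015 all 19 libraries, 0.26), Csf1r (−0.021, −0.079, −0.075), Sall1 (0.11, 0.078, 0.081) and Gpr34 (0.20, 0.35, 0.36), at 2 weeks for P2ry12 (−0.039 library size, −0.16 set block, −0.14 set 5), Tmem119 (0.75, 0.76) and Sall1 (−0.028 library size), in input for Gpr34 (0.057, set block, 24 hours) and P2ry12 (−0.030 library size, −0.0015 all 13 libraries, 2 weeks), and in the interaction for P2ry13 (−0.067, sets 4 and 5) and Tmem119 (0.35 set block, 0.51 sets 4 and 5). With a mouse left out, signs turned at 24 hours in m6A for Tmem119 (−0.41 to 0.50), Csf1r (−0.26 to 0.32), Sall1 (−0.44 to 0.20) and Gpr34 (−0.46 to 0.088), and at 2 weeks for P2ry12 (−0.11 to 0.35), Tmem119 (−0.76 to 0.068), Csf1r (−0.015 to 0.67) and Sall1 (−0.19 to 0.34). They turned in input at 2 weeks for P2ry12 (−0.13 to 0.13), P2ry13 (−0.062 to 0.36) and Aif1 (−0.086 to 0.22), in the interaction for Tmem119 (−0.82 to 0.098), Csf1r (−0.042 to 0.75) and Sall1 (−0.17 to 0.50), and in the treatment difference of m6A over input for Csf1r (−0.48 to 0.059). The causes were not tested. The fits with the input library set as a block or with single sets were chosen after seeing the data, and Tmem119 had no value with all 7 input libraries. The shallowest m6A library limits the 24-hour values, as P2ry12 rests on 10 counts there.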
